A study of Mus musculus with 7 samples.

Results

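Rag1, Rag2, Dntt and Cd24a are genes of V(D)J recombination and of T cells that have recently left the thymus, and they were read together in splenic CD4+CD25+ cells of aged and young mice. They were picked by symbol alone, and they make up 4 of the 25469 genes that the authors' table of the series lists. Symbol, Ensembl identifier and place in the genome named the same gene for each of them. The libraries came from CD4+CD25+ splenocytes, the isolate that the study takes for regulatory T cells (Tregs), taken with magnetic beads from male wild-type C57BL/6 mice. By flow cytometry the paper counted more CD4+CD25+Foxp3+ and more CD4+CD25-Foxp3+ cells in aged mice, and the isolate is meant to hold only the former. The aged group held 3 biological replicates at 18 months of age. The young group held 4 biological replicates that the labels put at 8 weeks. RNA was turned into cDNA with the SMART-Seq v4 kit for small amounts of input, which adds no molecular identifiers. Whether a replicate is 1 mouse or a pool is not given in the sources used here, so that p-values measure the spread between these libraries.

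Rag1 and Rag2 form the recombinase that cuts DNA at the signal sequences beside V, D and J segments, and lymphocytes switch both genes on while they assemble their antigen receptors in the thymus or the bone marrow. Dntt encodes terminal deoxynucleotidyl transferase, which adds bases without a template to the cut ends. Cd24a encodes the heat stable antigen, a surface protein that is abundant on immature thymocytes, on T cells new to the periphery, on immature B cells and on cells of the red lineage. Mature T cells of the spleen are not known to need the recombinase, and in reporter mice a fluorescent protein made from the Rag2 promoter marks T cells for a while after they have left the thymus.

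Of these genes, Rag1 and Dntt were lower in the aged than in the young libraries and passed the test across all genes. The call on Dntt was kept in 6 of the 7 fits without 1 library, that on Rag1 in 2, and Rag1 entered the test only through its counts in the young libraries. Rag2 lay lower in every aged library than in any young library but missed the adjusted threshold, and Cd24a overlapped between the ages. Over all genes tested, 6.94% were called lower in the aged group. For 14.4% of them the groups did not overlap and the aged group was lower. Rag1 and Rag2 swung widely between libraries of 1 age, Dntt less so, and the order of the libraries differed from gene to gene.

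Rag1 and Rag2 lie side by side on chromosome 2 and face each other. In the mm10 build, which the submitters' processing notes name, Rag1 runs over chr2:101638282-101649501 on the minus strand, with 2 exons that cover 6608 bp. Rag2 runs over chr2:101624718-101632529 on the plus strand, with 3 exons that cover 3424 bp. The gap between both genes is 5753 bp. An annotated gene on the minus strand, B230118H07Rik, spans the pair, and it shares 1.21% of the Rag1 exon length and 6.07% of the Rag2 exon length. Reads on those shared bases could not be assigned to 1 gene. Dntt lies on chromosome 19, at chr19:41029275-41059525 on the plus strand, with 13 exons over 2292 bp. Cd24a lies on chromosome 10, at chr10:43578284-43584265 on the plus strand, with 4 merged exons over 2580 bp. Neither of these shares exon bases with another annotated gene.

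The promoters of Rag1, Rag2 and Dntt are shown because these genes were each lower in every aged library than in any young one. The same held for 14.4% of all genes tested. RefSeq on GRCm38.p6 gave a promoter for 3 of the 4 genes, and none was matched for Cd24a. Each line holds the 250 bases before the RefSeq start, 5′ to 3′ on the strand of the gene. This start lies 31 bases upstream of the Rag1 start given above and 6 bases upstream of that of Rag2, and it is the same base for Dntt. Capitals mark the RUNX letters TGTGGT and the CCAAT box, which reads ATTGG where it lies on the other strand.
Rag1, chr2:101649533-101649782, minus strand: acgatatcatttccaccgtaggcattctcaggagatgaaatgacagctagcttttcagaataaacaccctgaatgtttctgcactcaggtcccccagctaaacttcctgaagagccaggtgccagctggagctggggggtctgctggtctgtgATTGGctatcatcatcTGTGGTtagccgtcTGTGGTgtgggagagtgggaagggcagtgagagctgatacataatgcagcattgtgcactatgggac
Rag2, chr2:101624462-101624711, plus strand: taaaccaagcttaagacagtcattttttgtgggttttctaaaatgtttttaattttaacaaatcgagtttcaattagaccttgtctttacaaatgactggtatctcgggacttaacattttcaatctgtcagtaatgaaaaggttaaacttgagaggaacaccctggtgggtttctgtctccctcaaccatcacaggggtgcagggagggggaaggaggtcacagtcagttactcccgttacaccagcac
Dntt, chr19:41029025-41029274, plus strand: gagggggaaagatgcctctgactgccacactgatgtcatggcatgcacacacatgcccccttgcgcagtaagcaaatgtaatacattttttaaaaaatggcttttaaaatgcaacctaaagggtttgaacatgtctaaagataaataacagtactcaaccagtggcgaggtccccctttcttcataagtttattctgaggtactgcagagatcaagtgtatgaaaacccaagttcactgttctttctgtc

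The Rag1 promoter held the RUNX letters at 2 places, from -81 to -76 and from -67 to -62, with positions counted back from -1 at the base before the RefSeq start. Among 32851 promoters of the same length, 14.0% held these letters on either strand. The CCAAT box lay from -97 to -93 in Rag1, and 33.8% of promoters held 1. Rag1 also had 3 E-boxes (CANNTG), of which the one from -85 to -80 overlaps the first RUNX match, against 1 in Rag2 and 3 in Dntt. E-boxes stood in 66.2% of promoters. The Ikaros letters TGGGAA stood in the promoter of Rag1 and in 21.6% of all promoters. The GATA letters AGATAA stood in that of Dntt and in 9.99% of all. The FOXO letters GTAAACA, found in 3.17% of promoters, were not in any of these 3 windows, which says only that those letters are absent there.

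Each library held between 10734234 and 11244060 counts on genes in the aged group and between 12039894 and 13649310 in the young group. The limit of detection was set at 3 counts in a library, which equals 0.210 to 0.302 of the counts scaled to library size (CPM). All levels given here are CPM on the TMM scale, in which library sizes are weighted so that most genes stay level, and intervals and limits cover counting error only. Foxp3, the lineage factor of Tregs, stood at 516 ± 93.3 CPM (SD, n = 3) over the aged libraries and at 446 ± 61.8 CPM (SD, n = 4) over the young ones. Its fold change, and those of Cd4 and Il2ra, did not pass the test (edgeR adjusted p = 0.409, 0.117 and 0.0588). The log2 fold changes, aged over young, were 0.21 for Foxp3, -0.30 for Cd4 and -0.61 for Il2ra, the gene of CD25. Cd4 was lower in every aged library than in any young one, as were 14.4% of all genes tested. Il2ra overlapped between the ages and was called in 5 of 18 alternative fits. Transcripts of other cells were read as well. Over the 13 matched erythroid genes of 14 listed, the summed level ran from 13762 to 164299 CPM in the aged and from 12820 to 122059 CPM in the young libraries. The 14 neutrophil genes summed to between 784 and 5875 CPM in aged and between 344 and 1091 CPM in young libraries. Of these, 5 (35.7%, against 9.8% over all genes tested) were called higher in the aged group. S100a8, a calcium-binding protein of neutrophils and 1 of the 5, overlapped between the ages and stayed called in 2 of the 7 fits without 1 library. The 10 B cell genes summed to 1168 to 2144 CPM in aged and 1615 to 2552 CPM in young libraries. In bulk RNA, fewer cells of a type and less RNA per cell cannot be told apart.

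Rag1, the larger subunit, which carries the cutting site of the recombinase, was read 1, 73 and 8 times in aged replicates 1 to 3. In young replicates 1 to 4 it was read 260, 220, 975 and 430 times. Every young library thus lay above every aged library, although aged replicate 2 stood far above the other aged libraries and young replicate 3 far above the other young ones. On the CPM scale the aged libraries stood at 0.0874, 7.35 and 0.749 and the young libraries at 22.7, 15.4, 77.0 and 30.8. The first of these rests on 1 count and is below the limit of detection of its library, 0.262 CPM. The 95% exact Poisson intervals of young replicates 2, 1, 4 and 3 ran from 13.4 to 17.6, from 20.04 to 25.7, from 27.98 to 33.9 and from 72.2 to 82.0 CPM. None of them touches another, as is usual for separate libraries, whose replicate pairs all differed beyond counting noise over genes.

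**Figure D1:**
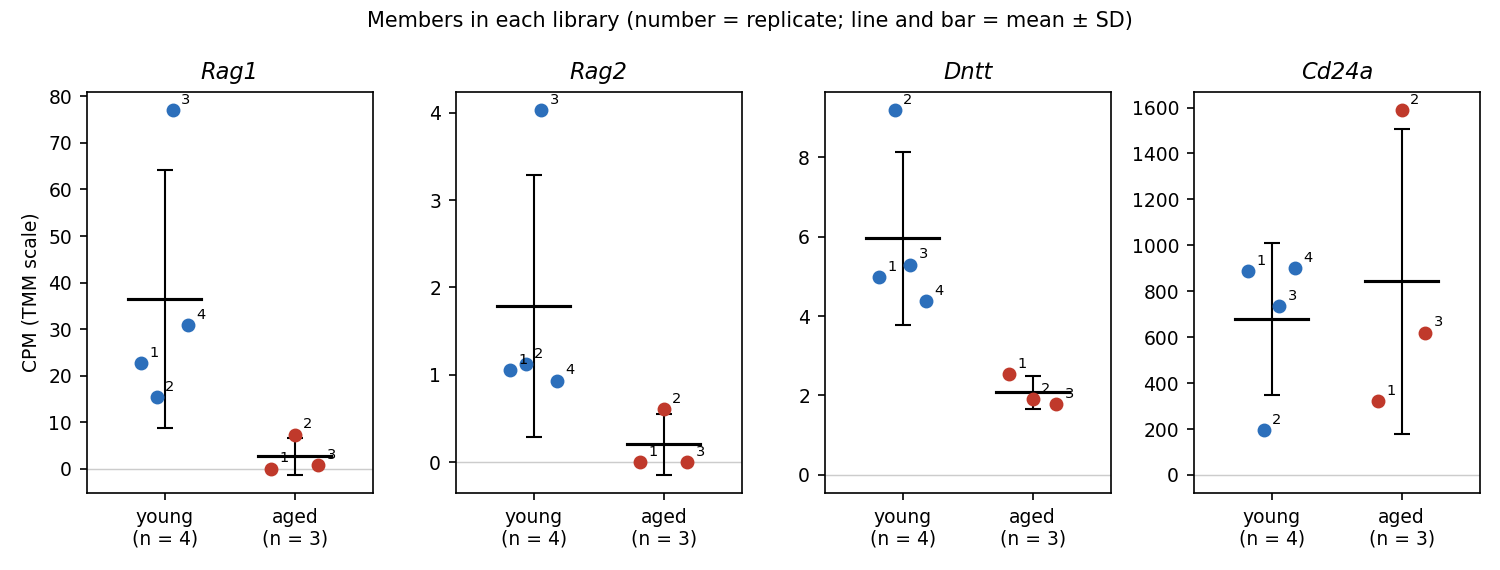
Level of Rag1, Rag2, Dntt and Cd24a in each library, in CPM on the TMM scale on a linear axis, with 1 point per library numbered by replicate and a line and bar for the mean ± SD of each age. The 3 aged libraries lie below the 4 young libraries for Rag1, Rag2 and Dntt, whereas for Cd24a aged replicate 2 is highest at 1588 CPM and young replicate 2 lowest at 194 CPM.

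The mean level of Rag1 was 2.73 ± 4.02 CPM (SD, n = 3) over the aged libraries and 36.5 ± 27.7 CPM (SD, n = 4) over the young ones. The fitted difference was a log2 fold change of -3.78 with a standard error of 1.01, which is 13.7-fold lower in the aged group (edgeR's quasi-likelihood test, Benjamini-Hochberg adjusted p = 0.0376). Of the 13904 genes tested, 16.7% were called at this threshold, 6.94% lower and 9.8% higher in the aged group. The exact permutation test over the 7 libraries, two-sided, gave p = 0.0571 for Rag1, which is the smallest p that 3 against 4 libraries allow. Groups that did not overlap were found for 29.9% of the genes tested, and for 14.4% with the aged group lower. Rag1 passed the filter on low counts only through the young libraries.

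The call on Rag1 turned on single libraries while its sign did not. The log2 fold change stayed below 0 in each of the 7 fits that left out 1 library, between -6.45 and -3.10, and 2 of them kept the call. The largest of these was found without aged replicate 2, with an edgeR adjusted p of 0.0106, and the other was found without young replicate 2, with 0.0311. The call was lost without aged replicate 1, aged replicate 3, young replicate 1, young replicate 3 or young replicate 4, with adjusted p-values from 0.0509 to 0.122. Without both aged replicate 2 and young replicate 3, the libraries with most Rag1 of their age, the log2 fold change was -5.78 (adjusted p = 0.0121), a setting chosen after seeing the data. Over all alternatives, 10 of 17 called Rag1, and adjusted p-values ran from 0.00678 to 0.150.

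Rag2, the smaller subunit, which reads a methylated histone tail and is needed for cutting, was read 0, 6 and 0 times in the aged libraries. In the young libraries it was read 12, 16, 51 and 13 times. Aged replicate 2 was the only aged library with a count, and young replicate 3 had the most, as for Rag1. In CPM, aged replicate 2 stood at 0.604 and the young libraries at 1.05, 1.12, 4.03 and 0.932. The counts of 0 had 95% exact Poisson intervals of up to 0.322 CPM in aged replicate 1 and up to 0.345 CPM in aged replicate 3. The interval of aged replicate 2, from 0.222 to 1.32 CPM, includes the levels of young replicates 1, 2 and 4, so that a difference from these was not detectable at this depth.

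The mean level of Rag2 was 0.201 ± 0.349 CPM (SD, n = 3) over the aged libraries and 1.78 ± 1.499 CPM (SD, n = 4) over the young ones. The fitted difference of Rag2, -3.16 on the log2 scale with a standard error of 1.05, did not pass the edgeR test, with an adjusted p of 0.0739. The exact permutation p was again 0.0571. Like Rag1, Rag2 passed the filter on low counts only through the young libraries. Rag2 was called in 6 of 17 alternatives, and adjusted p-values ran from 0.00982 with DESeq2 to 0.198. Among the fits without 1 library, only that without aged replicate 2 called it (edgeR adjusted p = 0.0429), and there the remaining aged libraries were both at 0, so that its fitted fold change depends on the prior count.

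Rag1 was read more than Rag2 per length of transcript in the 5 libraries with over 3 Rag2 counts. Per kilobase of exon, Rag1 stood at 3.44, 2.33, 11.7 and 4.66 CPM in young replicates 1 to 4 and at 1.11 CPM in aged replicate 2. Rag2 stood at 0.306, 0.327, 1.18 and 0.272 CPM per kilobase in the young libraries and at 0.176 in aged replicate 2. The ratio of Rag1 to Rag2 was lowest in aged replicate 2, at 6.30, and highest in young replicate 4, at 17.1, with a median of 9.91. In aged replicates 1 and 3 no ratio could be formed.

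Dntt, which needs a cut end to act on, was read 29, 19 and 19 times in the aged libraries and 57, 131, 67 and 61 times in the young libraries. In CPM the aged libraries stood at 2.53, 1.91 and 1.78. The young libraries stood at 4.98, 9.18, 5.29 and 4.37. The aged libraries were close to each other, and among the young libraries replicate 2 was the highest, a library that had the least Rag1 of its age. Young replicate 3, which had the most Rag1 and Rag2, was not set apart in Dntt. The counting interval of aged replicate 1 reached 3.64 CPM and that of young replicate 4 began at 3.34 CPM.

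Dntt averaged 2.08 ± 0.403 CPM (SD, n = 3) over the aged libraries and 5.96 ± 2.18 CPM (SD, n = 4) over the young ones. The log2 fold change was -1.52 with a standard error of 0.321, which is 2.86-fold lower in the aged group (edgeR adjusted p = 0.0163). The exact permutation p was 0.0571. Dntt kept the call in 15 of 18 alternatives and in 6 of the 7 fits without 1 library, where log2 fold changes lay between -1.69 and -1.22. Leaving out aged replicate 3 ended the call, with an edgeR adjusted p of 0.0618, and so did leaving out aged replicate 2 together with young replicate 3, with 0.0929. Over all alternatives the adjusted p-values of Dntt ran from 0.000415 to 0.0929. Per kilobase of exon, Dntt stood at 0.776 to 1.11 CPM in the aged libraries, above Rag1 in aged replicates 1 and 3 and below it in aged replicate 2, and at 1.91 to 4.00 CPM in the young ones. Young replicate 2 was the only young library with more Dntt than Rag1 per kilobase.

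**Figure D2:**
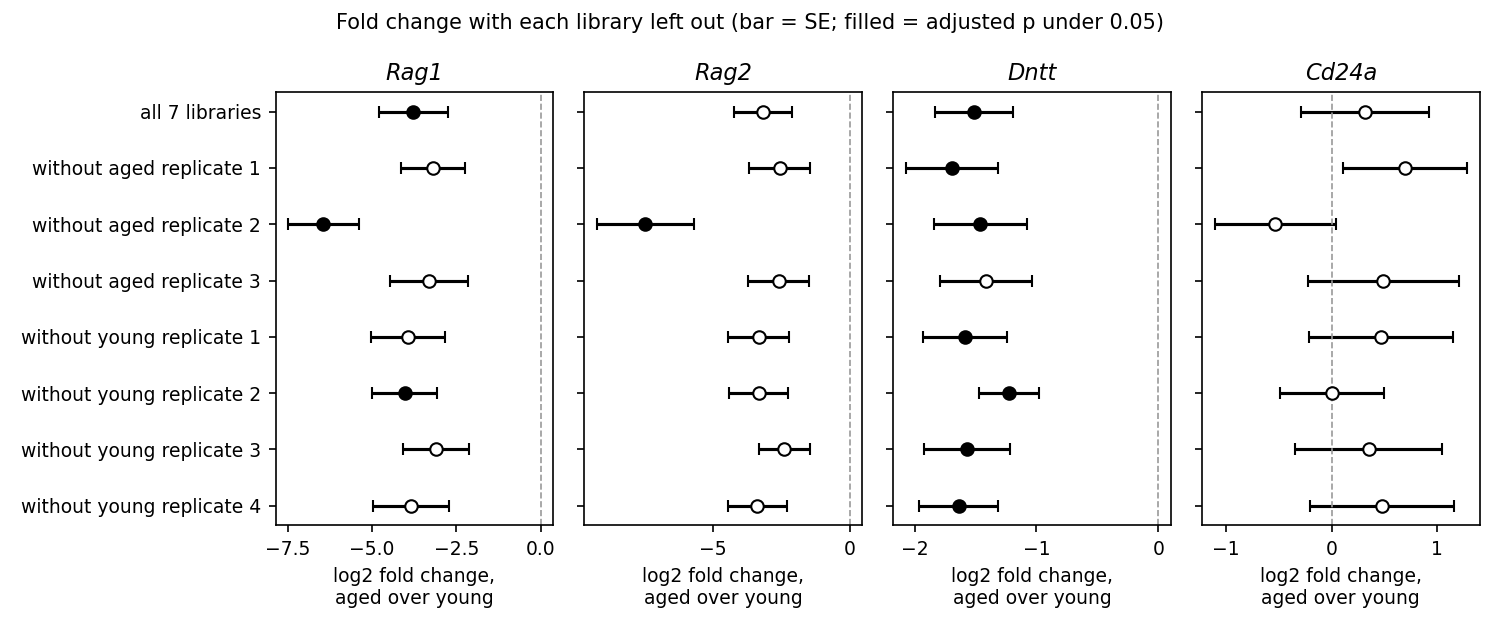
Log2 fold change, aged over young, of each gene in the edgeR fit of all 7 libraries and in the 7 fits that leave out 1 library, with bars for the standard error, filled points for an adjusted p under 0.05 and a horizontal scale of its own for each gene. Rag1, Rag2 and Dntt stay below 0 in every fit shown, Rag1 is filled in 2 of the 7 leave-one-out fits and Dntt in 6, and Cd24a lies on both sides of 0.

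Cd24a, the surface marker, was much more abundant than the recombination genes, with 3661, 15772 and 6626 counts in the aged libraries. The young libraries held 10157, 2771, 9292 and 12553 counts. This equals 320, 1588 and 620 CPM for the aged libraries and 888, 194, 734 and 900 CPM for the young ones. The ages overlapped, because aged replicate 2 had the highest and young replicate 2 the lowest level of all libraries. Means were 843 ± 663 CPM (SD, n = 3) over the aged libraries and 679 ± 332 CPM (SD, n = 4) over the young ones. The log2 fold change was 0.31 with a standard error of 0.607 and did not pass the edgeR test (adjusted p = 0.767). The exact permutation p for Cd24a was 0.8. No alternative called it, with adjusted p-values from 0.431 to 0.997, and its sign turned to -0.53 without aged replicate 2.

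Cd24a went with transcripts of red lineage cells from library to library. Slc4a1, which encodes the anion exchanger of the red cell membrane and is named here after its values were seen, had levels of 536, 4112 and 1650 CPM in the 3 aged libraries. In the 4 young libraries its levels were 3773, 243, 2115 and 3006 CPM. Both genes were highest in aged replicate 2 and lowest in young replicate 2, and their order differed only between young replicates 1 and 4. Other erythroid genes matched Cd24a less closely. Hbb-bs, a chain of adult haemoglobin, and Alas2, the first enzyme of haem synthesis in red cells, were also highest in aged replicate 2 but lowest in aged replicate 1, and both were higher in aged replicate 3 than in young replicates 3 and 4. Of the 13 erythroid genes tested, 0 were called by edgeR, DESeq2 or limma voom, 0 had an unadjusted edgeR p under 0.05, and 9 log2 fold changes lay above and 4 below 0. When the mean log2 level of the erythroid genes was added to the model, a choice made after seeing the data, the log2 fold change of Cd24a was 0.12 and its standard error 0.136 (edgeR adjusted p = 0.583). The other genes kept their direction under that term, with log2 fold changes of -4.26 for Rag1, -3.31 for Rag2 and -1.44 for Dntt, and all of them were then called (adjusted p = 0.00678, 0.0473 and 0.0045).

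The genes whose pattern over the 7 libraries was most like each member were found by Pearson's r of log2 CPM among 11956 genes whose log2 CPM averaged at least 1. For Rag1 these were Lrp1 (r = 0.990), D11Wsu47e (0.983) and Abcf1 (0.982). For Rag2 they were Gfra1 (r = 0.985), Cox6a1 (0.979) and Ubl4a (0.971). For Dntt they were Rragc (r = 0.995), Ppp4r2 (0.990) and G3bp1 (0.988). For Cd24a they were Carhsp1 (r = 0.998), Mpp2 (0.997) and Fahd1 (0.996). The points share their libraries and depth, the genes were the best of many, and the values are a description only. Carhsp1 ran from 34.6 CPM in young replicate 2 to 244 CPM in aged replicate 2, the same libraries that bound Cd24a.

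The neighbours on the chromosome were not called. Traf6, an adaptor of innate signalling and the next gene beyond Rag1, had a log2 fold change of -0.48 (edgeR adjusted p = 0.0862). B230118H07Rik, which spans both Rag genes, stood at 1.51 ± 0.813 CPM (SD, n = 3) over the aged libraries and at 1.25 ± 0.453 CPM (SD, n = 4) over the young ones. Its groups overlapped, and its log2 fold change of 0.28 changed sign without aged replicate 1. Beside Dntt, Blnk, an adaptor of the B cell receptor, had a log2 fold change of 0.13 and Opalin was at 0 counts in every library. Beside Cd24a, 1700021F05Rik had one of 0.19 and Qrsl1 one of 0.06.

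High mobility group proteins are cofactors of the cut that the recombinase makes, and the end joining enzymes repair the cut ends. All 16 genes of that list were tested. Of these, 2 were called, both lower in the aged group, which is 12.5% against 16.7% over all genes tested and so no result about the list, with a median log2 fold change of -0.09 against 0.02 over all genes tested. Prkdc, the kinase that opens hairpin ends with Artemis, stood at 56.0 ± 12.6 CPM (SD, n = 3) over the aged libraries and at 83.8 ± 7.91 CPM (SD, n = 4) over the young ones, a log2 fold change of -0.58 (edgeR adjusted p = 0.0367). Xrcc6, which encodes Ku70, the ring that holds DNA ends, had one of -0.50 (edgeR adjusted p = 0.0294). Lig4, the ligase of the pathway, had one of -0.75 and was not called (edgeR adjusted p = 0.0842). Hmgb1, which bends DNA for the recombinase, had one of 0.11. The count of called genes was not stable. It was 0 without aged replicate 2, aged replicate 3 or young replicate 4, 1 without young replicate 1 or young replicate 3, and 6 without aged replicate 1. Over all genes tested, called genes ran from 1237, without young replicate 4, to 3058, without aged replicate 1.

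**Figure D3:**
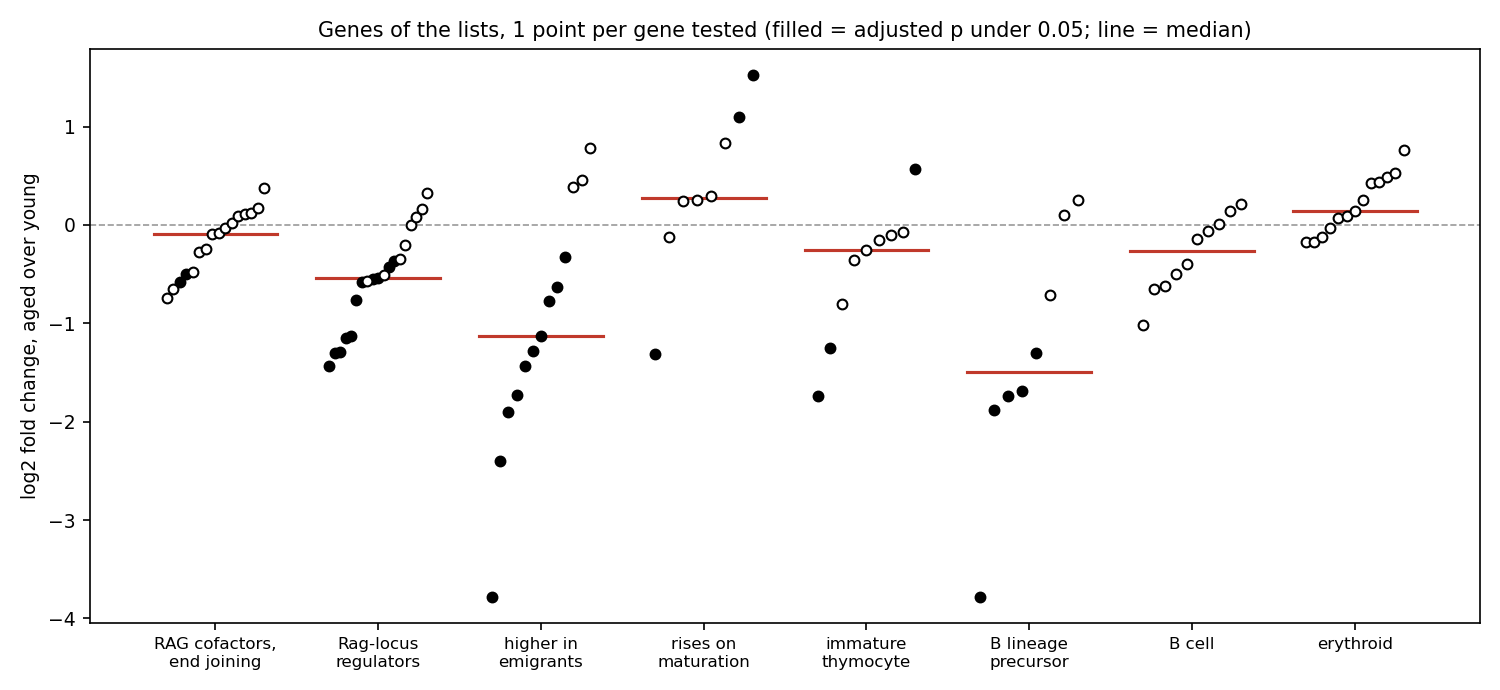
Log2 fold change, aged over young, of every tested gene in 8 lists, 1 point per gene, filled where the edgeR adjusted p was under 0.05, with a line at the median of each list, the 4 members left out. The medians are -0.09 for recombination partners, -0.54 for regulators, -1.13 for emigrant genes, 0.27 for genes that rise on maturation, -0.26 for immature thymocyte genes, -1.50 for B lineage precursor genes, -0.27 for B cell genes and 0.14 for erythroid genes.

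Among 19 transcription factors listed as acting on the Rag locus or on lymphoid Rag expression, 11 (57.9%, against 6.94% over all genes tested) were called lower in the aged group and none higher, with a median log2 fold change of -0.54. These are factors of T cells at large and not of the Rag locus alone. The list does not separate factors that raise Rag expression from those that lower it. The part of these factors in the difference of Rag1 or Rag2 was not tested. Satb1, a chromatin organiser of thymocytes, fell most. It stood at 230 ± 15.1 CPM (SD, n = 4) over the young libraries and at 85.3 ± 18.1 CPM (SD, n = 3) over the aged ones, a log2 fold change of -1.43 (edgeR adjusted p = 0.00114). Myb fell by 1.30, Zfp608 by 1.29, Klf2, which keeps naive T cells in circulation, by 1.15 and Lef1, a partner of the Wnt pathway, by 1.13 on the log2 scale. Foxo1, which drives Rag expression in B lineage cells, fell by 0.55 (edgeR adjusted p = 0.0140). Ikzf1, which encodes Ikaros, fell by 0.54 (edgeR adjusted p = 0.0239). The call on Ikzf1 was kept in 2 of the 7 fits without 1 library and that on Foxo1 in 6. The number called in these fits ran from 5, without aged replicate 3, to 13, without aged replicate 1, and was 7 without young replicate 1, 3 or 4. Over all genes tested, 448 were called lower without aged replicate 3 and 1455 without aged replicate 1, against 965 with all libraries.

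Genes known to be higher in T cells fresh from the thymus were mostly lower in the aged group, as Rag1 and Dntt were, whereas Cd24a was not called. Of 13 such genes besides Cd24a, 10 (76.9%, against the same 6.94%) were called lower in the aged group and none higher, and the median log2 fold change was -1.13. The other 3 lay above 0 and were not called, with log2 fold changes of 0.79 for Ptk7, 0.46 for Ikzf2, which encodes Helios and did not overlap between the ages, and 0.39 for Tox. Genes called higher numbered 1 without young replicate 2 and 2 with the mean log2 level of the erythroid genes as a term, a setting chosen after seeing the data. Sox4, a factor of lymphoid precursors, was read 8, 6 and 3 times in the aged libraries and 71, 86, 133 and 96 times in the young libraries. Its groups were far apart, and its log2 fold change was -3.78 with a standard error of 0.371 (edgeR adjusted p = 0.000898), close to that of Rag1 with a smaller error. Like the Rag genes, Sox4 passed the filter on low counts only through the young libraries. Dapl1 fell by 2.40 on the log2 scale. Ccr9, the receptor that guides thymocytes and gut-homing cells, fell by 1.90. It stood at 18.7 ± 2.60 CPM (SD, n = 4) over the young libraries and at 5.01 ± 1.19 CPM (SD, n = 3) over the aged ones. Igfbp4 fell by 1.73. The call on each of these 4 genes held in all of the 7 fits without 1 library. Several genes of this list, Satb1 and Lef1 among them, also mark naive T cells at large, and their part in the difference of Rag1 or Dntt was not tested.

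Of 8 surface genes known to rise as emigrants mature, 2 were called higher and 1 lower in the aged group, together 37.5% of the list against 16.7% over all genes tested. H2-Q6 and H2-Q7, which encode Qa-2 and are near-identical copies whose reads the counting may have split, had log2 fold changes of 1.52 and 1.10 (edgeR adjusted p = 0.000377 and 0.00117). Ly6c1 went the other way, by -1.31 (edgeR adjusted p = 0.00693). Il7r, the interleukin 7 receptor, had a log2 fold change of 0.25 and was not called.

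The recombinase is on in thymocytes and in B cell precursors, and genes of both were read beside it. Of 12 genes of immature thymocytes, 9 were tested, 2 were called lower and 1 higher in the aged group (33.3% of those tested, against 16.7% over all genes), and their summed levels overlapped, with 308 to 371 CPM in aged and 323 to 414 CPM in young libraries. Ptcra, the partner chain of the pre-T cell receptor and the most specific of them, had at most 1 count in any library. Arpp21 was read 3 to 7 times in aged and 18 to 26 times in young libraries, with a log2 fold change of -1.74 (edgeR adjusted p = 0.0130), and it too passed the filter on low counts only through the young libraries. Themis, a signalling protein of thymocyte selection that mature T cells also express, fell by 1.25 and Cd1d1, the lipid presenting molecule, had a log2 fold change of 0.57 on the same scale, both called by edgeR. Cd8a and Cd8b1, which double positive thymocytes express, had log2 fold changes of -0.15 and -0.36 and were not called. The part of thymocytes in the difference of Rag1 was not tested.

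Of 12 B lineage precursor genes, 8 were tested and 5 (62.5%, against 6.94% over all genes tested) were called lower in the aged group, with none higher. They were Sox4, Akap12, Cd93, Vpreb3 and Myb, of which Akap12, Cd93 and Vpreb3 are named here after their values were seen. Their log2 fold changes were -1.88 for Akap12, -1.74 for Cd93 and -1.69 for Vpreb3 (edgeR adjusted p = 0.00177, 0.00301 and 0.0415). The call on Vpreb3 held in 2 of the 7 fits without 1 library, and those on Akap12 and Cd93 in all of them. Cd93 marks immature B cells of the spleen, and Vpreb3 is a protein of B lineage cells. The summed level of the whole list overlapped between ages, at 410 to 628 CPM in aged and 491 to 665 CPM in young libraries, with Il7r alone at 264 to 555 CPM over all libraries. The tested genes that were not called had log2 fold changes of -0.72 for Ebf1, a factor that B lineage cells need, 0.25 for Il7r and 0.10 for Erg.

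Young replicate 3 was the highest of all 7 libraries for Rag1, Rag2 and the 5 called genes of that list. The other young libraries followed in the order 4, 1 and 2 for Rag1, Sox4, Akap12 and Vpreb3, and in other orders for Rag2, Cd93 and Myb. Vpreb3 had the order of Rag1 over all 7 libraries. Not all genes of the list were highest in young replicate 3. Vpreb1 was highest in young replicate 2 (1.05 CPM), Igll1 in young replicate 1 (0.874 CPM) and Il7r in aged replicate 1 (555 CPM). Counts were often too close to rank, as in Sox4, Rag2 and Igll1. Vpreb3 had 2.10, 10.7 and 9.92 CPM in the aged libraries, by replicate number, against 21.5, 18.4, 32.7 and 24.7 CPM in the young ones. Akap12 had 14.0, 16.1 and 10.6 CPM in the aged libraries against 43.0, 40.4, 68.9 and 47.4 CPM in the young ones. Its levels differed less from each other than those of Rag1 did. Of the genes that define pro-B and pre-B cells, which form the surrogate light chain, Vpreb2 had at most 1 count in any library. Vpreb1 was read 1, 7 and 0 times in aged and 4, 15, 11 and 6 times in young libraries. Igll1 was read 0, 1 and 0 times in aged and 10, 11, 10 and 12 times in young libraries, so that its aged libraries were all under the limit of detection. Neither gene passed the filter on low counts of the main test. Both were tested in 5 alternatives, namely DESeq2, edgeR with no filter and the fits without each aged library in turn, the last of which they entered through their young counts. Vpreb1 was called in 0 of these (adjusted p from 0.0610 to 0.582) and Igll1 in 5 (adjusted p from 0.00612 to 0.0277), which for Igll1 sets 10 to 12 counts against at most 1. Cd79a, which B cells of most stages carry, had a log2 fold change of -0.40 and was not called. Of the 10 B cell genes, 0 were called by edgeR, 3 had an unadjusted edgeR p under 0.05, and DESeq2 called 2 and limma voom 1. The part of B lineage cells in the difference of Rag1 and Rag2 was not tested.

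Plasmacytoid dendritic cells, some of which are known to transcribe Rag genes, were read through 9 listed genes. Their summed level was 422 to 563 CPM in the aged and 589 to 763 CPM in the young libraries, so that the ages did not overlap. Single genes with no overlap and the aged group lower made up 14.4% of all genes tested. Of the 7 listed genes that were tested, 2 (28.6%, against 6.94% over all genes tested) were called lower and none higher in the aged group. The median log2 fold change over these 7 was -0.17. Siglech, a surface lectin of these cells, was read 14, 15 and 26 times in aged and 41, 68, 84 and 90 times in young libraries, with a log2 fold change of -1.64 (edgeR adjusted p = 0.0140) that stayed called in all of the 7 fits without 1 library. Its levels, 1.22 to 2.43 CPM in the aged and 3.58 to 6.63 CPM in the young libraries, are a small part of the summed levels. The other called gene was Spib, a factor that B cells express too, named here after its values were seen, with a log2 fold change of -1.23 (edgeR adjusted p = 0.0137). Of 8 genes of conventional dendritic cells, all tested, 2 were called lower and 1 higher in the aged group, together 37.5% of the list against 16.7% over all genes tested. Their summed level overlapped, at 44.5 to 64.9 CPM in aged and 59.5 to 77.5 CPM in young libraries. The part of dendritic cells in the difference of Rag1 and Dntt was not tested.

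**Figure D4:**
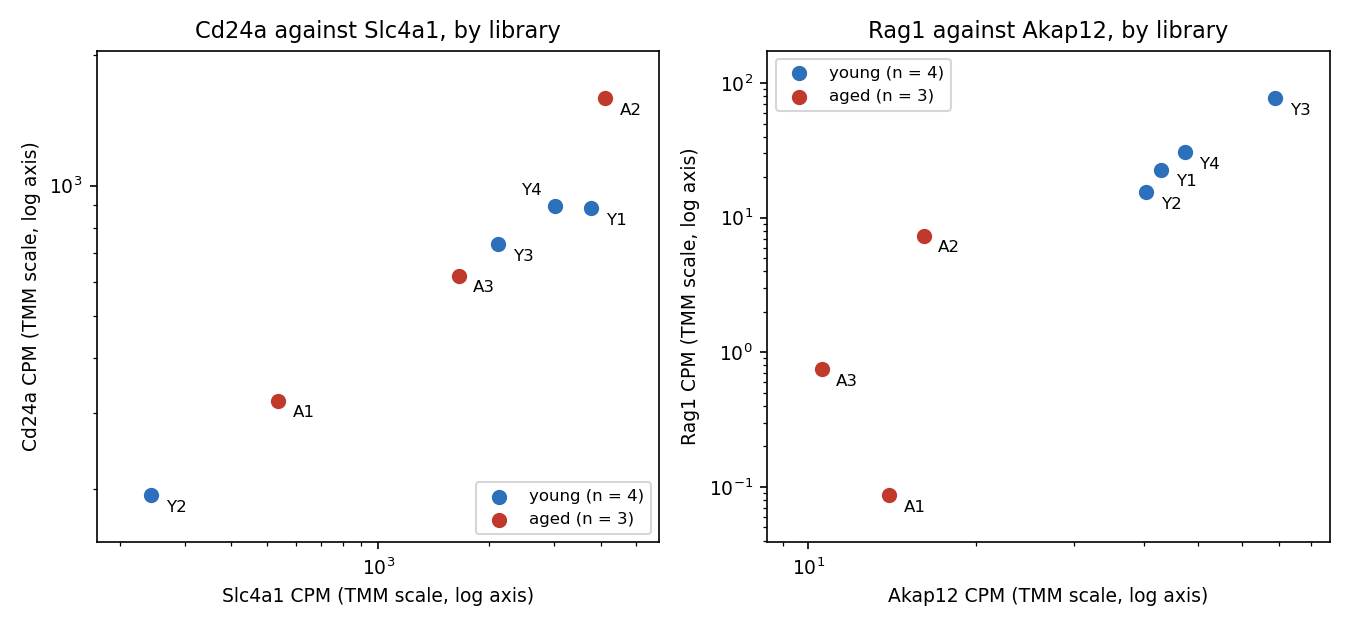
Cd24a against Slc4a1 and Rag1 against Akap12, in CPM on the TMM scale with log axes, 1 point per library, labelled Y for young or A for aged with its replicate number. Cd24a rises with Slc4a1 in both ages, from 194 CPM in young replicate 2 to 1588 CPM in aged replicate 2, and young replicate 3 is the highest library for both Rag1 and Akap12.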

How the data were processed

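The deposited files of each library hold the authors' read counts per Ensembl gene without normalization, in the layout that HTSeq-count gives in union mode without strand. Counts not assigned to a single gene (13.1% to 20.9%) were left out. In the table of the series that the authors deposited, the signal was checked to equal the count times 1 constant per library. Its symbols were used, and its fold change and p-value columns, which are the authors' own comparison, were not. The submitters' processing notes name mm10, and the aligner is not given in the sources used here. Exons come from GENCODE M21 on GRCm38 and promoters from RefSeq. The labels and the study's methods differ on the age of the young mice, and the labels were followed.

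Both ages were compared by the quasi-likelihood test of edgeR 4.0.16 under R 4.3.3, with TMM normalization, filterByExpr by group and no covariate. Benjamini-Hochberg adjustment covered all 13904 genes tested, and a gene was called at an adjusted p under 0.05. The study's methods name limma. Exact permutation tests were two-sided. The members and the gene lists were chosen with earlier results of these data known. Besides the members, named genes are Foxp3, Cd4 and Il2ra, up to 5 called genes with the largest change and set genes of each list, set markers, the nearest annotated genes, and the 3 genes most alike in pattern. Results for some of the set genes are not reported here. The 9 pairs of replicates differed beyond counting noise (chi-square over degrees of freedom 8.88 to 185).

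The alternatives were DESeq2 1.42.0, limma 3.58.1 voom, RLE normalization, library size only, no haemoglobin, immunoglobulin or mitochondrial genes, no filter, a minimum of 10 counts in every library, the replicate number as a block, thinning to the smallest total, log2 fold changes of 1 or more in size, and each library left out. The fits without both aged replicate 2 and young replicate 3, and with an erythroid term, were chosen after seeing the data. Tested on simulated data with 13675 genes, edgeR recovered 63 of 100 genes changed by 1 and 98 of 100 changed by 2 on the log2 scale, with 4 false calls. The changed genes were drawn from those above a minimum mean count, and the simulated spread between libraries followed the trend over all genes. The wide spread of Rag1 and the low counts of Rag2 were not simulated, so these shares do not tell how often such genes would be called.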

Additional observations from a re-analysis of the deposited data

Results flagged for a closer look

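Rag2 in young replicate 3, at 4.03 CPM, stood far from the other young libraries, which lay between 0.932 and 1.12 CPM. Rag1 was also highest in that library, at 77.0 CPM, but its distance from the others did not reach the same criterion. Lef1 was set apart in young replicate 2, at 124 CPM against 104 to 107 CPM in the others. Ly6c1 was set apart in the same library, at 63.6 CPM against 45.7 to 48.1 CPM. Blnk, the neighbour of Dntt, stood at 81.2 CPM in young replicate 4 against 55.1 to 57.4 CPM. These are 4 of 44 genes looked at in the young group, and chance sets apart about 1 in 20. The 3 aged libraries are too few for such a criterion.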

How the results depend on the processing

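Rag1, Rag2 and Dntt kept their direction in every alternative that gave a value, and what changed was the call. Rag1 was no longer called with limma voom (-5.12). Rag2 was called with DESeq2 (-3.22), limma voom (-3.75), no filter (-3.18), the erythroid term (-3.31) and without aged replicate 2 and young replicate 3 (-6.69, which depends on the prior count, since both aged libraries left are at 0), and Dntt was not called in the last of these (-1.51), where Cd24a turned to -0.50. A minimum of 10 counts in every library left Rag1 and Rag2 out through their aged libraries. Leaving out 1 library gave log2 fold changes from -6.45 to -3.10 for Rag1, from -7.47, which has the same limit, to -2.38 for Rag2, from -1.69 to -1.22 for Dntt and from -0.53 to 0.70 for Cd24a. It gave 1237 to 3058 called genes and 0 to 6 called recombination partners, against 2327 and 2. Called genes numbered 1016 where a change of 1 or more on the log2 scale was asked and 731 without aged replicate 2 and young replicate 3. Recombination partners called were 5 with DESeq2, 4 with the erythroid term and 0 without aged replicate 2 and young replicate 3. The cause of these changes was not tested.

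Some genes near 0 changed sign. With 1 library, or aged replicate 2 and young replicate 3, left out, log2 fold changes ran from -0.021 to 0.45 for Il7r, -0.54 to 0.037 for Cd8a, -0.40 to 1.00 for Hbb-bs, -0.65 to 0.97 for Alas2, -0.15 to 0.64 for B230118H07Rik, -0.046 to 0.28 for Blnk and -0.0083 to 0.13 for Qrsl1. Alas2 was -0.0020 with limma voom and -0.11 with the erythroid term, and Qrsl1 was -0.0092 with library size only.

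Libraries of both ages share replicate numbers, but same-numbered libraries did not deviate together (r = -0.09, -0.29 and -0.14 over genes), so the numbers do not pair them. With the replicate number as a block, 292 genes and 0 recombination partners were called, and 8 of the genes that are higher in emigrants or rise on maturation, against 13 over both lists without it. Under the block 4 Rag regulators were called, against 11 without it, 2 B lineage precursor genes, against 5, and 0 thymocyte genes, against 3. The log2 fold changes were -4.35 for Rag1 and -1.59 for Dntt, not called, -3.29 for Rag2 and 0.31 for Cd24a. Among the members, Rag2 had the fewest counts, at 0 to 6 in the aged libraries, where depth limits what can be read.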
